A study of Mus musculus with 6 samples.

Results

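Keratin-associated proteins are the matrix proteins of the hair shaft, where they fill the space between keratin filaments and are cross-linked to them by disulfide bonds. Their genes are small, usually without introns, lie in clusters, and are switched on late in the growing hair follicle, in the cells that become the cortex and cuticle of the shaft. They are sorted by composition into high sulfur and ultra-high sulfur proteins, both rich in cysteine, and high glycine-tyrosine proteins. The genes described here are all protein-coding genes whose name starts with Krtap, 57 of the 55291 genes in the count table. A Krtap19-9a entry annotated as a pseudogene was left out.

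Levels were measured by RNA sequencing of whole dorsal skin, in mice with the tight skin mutation (TSK) and in their wild-type (WT) littermates, with 3 animals of each genotype and 1 library per mouse. TSK mice are heterozygous for a duplication inside Fbn1, the gene of the microfibril protein fibrillin 1, and serve as a model of skin fibrosis, and no Cre or tissue-specific promoter is involved. All mice were C57BL/6, were 6 to 8 weeks old by the labels, and were shaved before the skin was taken. The labels give females, whereas the methods of the study describe males, aged 8 weeks, for this skin. In whole skin, fewer hair-forming cells and less RNA per cell cannot be told apart.

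The genotype check held in every library. Fbn1 was at 267, 288 and 262 CPM (counts scaled to 1000000 per library) in WT 1, 2 and 3 and at 1538, 2285 and 2006 CPM in TSK 1, 2 and 3, so that TSK was higher by 2.54 on the log2 scale (SE 0.22, adjusted p = 0.00327 in edgeR). Library totals ranged from 17561453 to 19219814 estimated counts. CPM values rest on library totals, whereas TMM, the scaling used in the tests, lowers the TSK libraries against the WT libraries, and between both scalings the median log2 fold change of all genes moves from 0.25 to -0.03. Ratios of summed levels are therefore given on both. A gene without a count could have been present at up to 0.156 to 0.171 CPM, the level of 3 counts in a library, which covers counting error only. The skin samples held abundant skeletal muscle RNA, with 119629 to 198986 CPM summed over 8 muscle genes, and the sum of 7 adipocyte genes was 144 to 208 CPM in WT and 490 to 2720 CPM in TSK.

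The 57 genes lay in 5 chromosomal clusters in the mm10 (GRCm38) build. In the GENCODE annotation 52 of them had single-exon transcripts only, and Krtap5-1, Krtap5-2, Krtap5-3, Krtap14 and Krtap15 also had a transcript of 2 to 4 exons. Chromosome 16 held 24 genes (88610705 to 89571183), chromosome 11 held 23 (99550130 to 99993994), chromosome 7 held 5 (142174535 to 142304594), chromosome 10 held 3 (77720599 to 77837252) and chromosome 1 held 2 (83041524 to 83061921). The encoded proteins were 57 to 502 residues long. By composition 19 were placed in the high glycine-tyrosine class (glycine plus tyrosine at 35% of residues or more), 17 of the rest in the ultra-high sulfur class (cysteine above 30%) and 21 in the high sulfur class.

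Each cluster had its own protein makeup. Chromosome 16 held 15 high glycine-tyrosine genes and 9 high sulfur genes. Chromosome 11 held 12 ultra-high sulfur and 11 high sulfur genes and none of the high glycine-tyrosine class. Krtap19-9b, on chromosome 16, encodes a protein without cysteine in which glycine and tyrosine made up 65.5% of the residues. At the other end, Krtap28-10 on chromosome 1 reached 42.9% cysteine. Krtap28-10, Krtap28-13, Krtap5-2 and Krtap5-3 met both limits, and the rule placed them with the high glycine-tyrosine genes. The high sulfur class held what the limits left over, and its 9 genes on chromosome 16 encode proteins with 4.0% to 12.7% cysteine. Krtap7-1 among them had 9.20% cysteine and 29.9% glycine plus tyrosine.

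**Figure D1:**
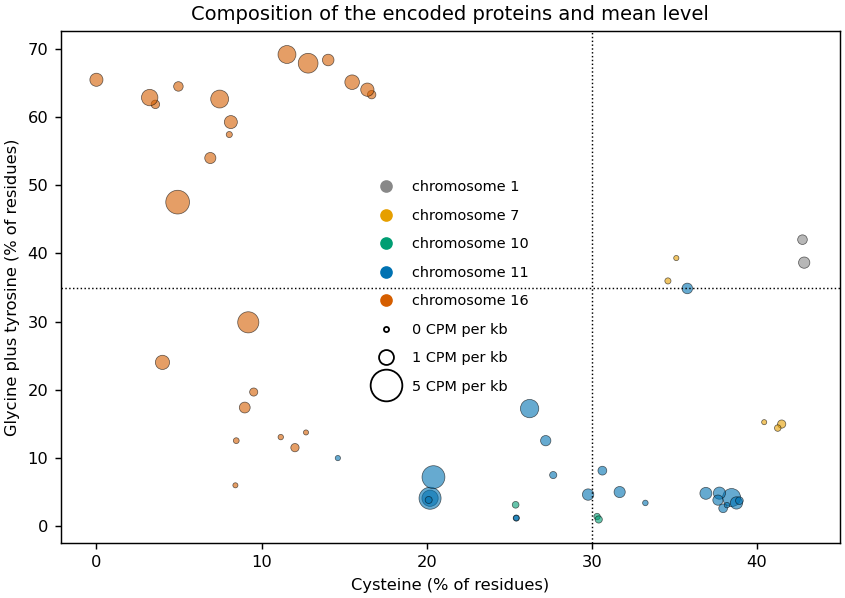
Cysteine against glycine plus tyrosine (both in % of residues) for the 57 encoded proteins, with point area rising with the mean level over 6 libraries (CPM per kb) and colour giving the chromosome. Dotted lines mark the class limits of 30% and 35%. Chromosome 16 genes fill the left side and chromosome 11 genes the lower right, and the 2 chromosome 1 genes lie beyond both limits.

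The upstream sequences shared a feature that the choice of genes did not use. RefSeq start sites (GRCm38.p6) were found for 51 of the 57 genes, and the bases before them were searched for the TATA box word TATAAA. On the strand of the gene it began 20 to 40 bases before the start in 31 of 51 Krtap promoters (60.8%) and in 655 of 32851 promoters of all genes (1.99%). The 31 matches began 27 to 37 bases before the start. By cluster the word was at this place in 17 of 21 genes on chromosome 11, 10 of 23 on chromosome 16 and 3 of 5 on chromosome 7. Counting TATAAA or TATATAAG anywhere in the 100 bases before the start, on the same strand, 48 of 51 Krtap promoters matched (94.1%) against 4.26% of all promoters. TATATAAG was added after the sequences had been seen, since Krtap19-1 to Krtap19-4 carry it in place of TATAAA.

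The 100 bases before the start of 16 genes are shown, chosen among those whose levels are described one by one. All but Krtap19-3 carry TATAAA in this stretch, and Krtap19-3 stands for the 10 of 51 promoters that had none in it. Capitals mark TATAAA and, where present, AACAAGGAA. Sequences run 5′ to 3′ on the strand of the gene.
Krtap3-1 (chr11:99566631-99566730, minus strand): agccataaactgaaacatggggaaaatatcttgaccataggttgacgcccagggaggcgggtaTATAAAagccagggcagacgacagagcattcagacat
Krtap3-2 (chr11:99556854-99556953, minus strand): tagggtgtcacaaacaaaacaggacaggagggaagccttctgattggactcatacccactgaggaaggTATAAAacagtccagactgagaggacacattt
Krtap1-5 (chr11:99581017-99581116, minus strand): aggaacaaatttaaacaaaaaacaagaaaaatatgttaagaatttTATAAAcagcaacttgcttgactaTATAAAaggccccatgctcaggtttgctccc
Krtap4-1 (chr11:99628240-99628339, minus strand): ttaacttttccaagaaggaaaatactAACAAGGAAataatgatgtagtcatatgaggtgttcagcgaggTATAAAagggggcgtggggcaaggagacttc
Krtap4-2 (chr11:99635085-99635184, minus strand): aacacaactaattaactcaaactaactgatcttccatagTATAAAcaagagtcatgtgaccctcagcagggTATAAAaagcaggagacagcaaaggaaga
Krtap8-1 (chr16:89487953-89488052, minus strand): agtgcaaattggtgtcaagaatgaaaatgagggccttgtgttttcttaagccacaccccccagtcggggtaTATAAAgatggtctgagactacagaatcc
Krtap6-5 (chr16:89047900-89047999, minus strand): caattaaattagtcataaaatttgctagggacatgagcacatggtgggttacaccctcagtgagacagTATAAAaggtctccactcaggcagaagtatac
Krtap6-1 (chr16:89031599-89031698, plus strand): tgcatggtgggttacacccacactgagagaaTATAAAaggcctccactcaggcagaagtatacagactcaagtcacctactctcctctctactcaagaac
Krtap6-2 (chr16:89420112-89420211, minus strand): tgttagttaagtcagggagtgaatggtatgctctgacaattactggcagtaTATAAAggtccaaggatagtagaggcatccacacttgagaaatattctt
Krtap21-1 (chr16:89403775-89403874, minus strand): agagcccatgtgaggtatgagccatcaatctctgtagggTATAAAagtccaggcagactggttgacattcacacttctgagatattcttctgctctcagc
Krtap22-2 (chr16:89010760-89010859, minus strand): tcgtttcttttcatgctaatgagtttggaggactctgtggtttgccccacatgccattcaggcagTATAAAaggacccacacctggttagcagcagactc
Krtap11-1 (chr16:89571184-89571283, minus strand): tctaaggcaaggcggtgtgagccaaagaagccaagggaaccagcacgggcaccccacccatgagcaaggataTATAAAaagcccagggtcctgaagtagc
Krtap19-9b (chr16:88932265-88932364, minus strand): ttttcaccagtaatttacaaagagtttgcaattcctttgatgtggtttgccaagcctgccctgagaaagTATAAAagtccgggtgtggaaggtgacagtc
Krtap19-3 (chr16:88878039-88878138, minus strand): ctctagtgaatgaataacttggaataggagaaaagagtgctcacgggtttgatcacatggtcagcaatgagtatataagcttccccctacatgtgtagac
Krtap28-13 (chr1:83060830-83060929, plus strand): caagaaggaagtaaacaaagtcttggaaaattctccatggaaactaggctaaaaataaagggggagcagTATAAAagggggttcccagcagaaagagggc
Krtap5-5 (chr7:142229972-142230071, minus strand): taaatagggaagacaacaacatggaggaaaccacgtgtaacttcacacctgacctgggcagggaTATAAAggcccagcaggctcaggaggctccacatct
In Krtap6-2 the nearest TATAAA began 49 bases before the annotated start, in Krtap21-1 61 bases and in Krtap6-1 69 bases before it. The word AACAAGGAA, also chosen after the sequences had been seen and searched on both strands in 250 bases, was found in 7 of 21 chromosome 11 genes, 1 of 23 on chromosome 16 and 0.469% of all promoters. The 7 genes on chromosome 11 were 6 of the Krtap4 family and Krtap29-1. The LEF1 motif, searched on both strands in 250 bases as CTTTG followed by AA, AT, TA or TT, was found in 17 of 51 Krtap promoters (33.3%) against 14.8% of all promoters. GACGC, the core word of FOXN1 binding sites, was found in 3 of 51 (5.88%) against 22.6%. These matches describe letters in the sequence and show no binding. The shares were not matched for base composition. Related genes can share upstream sequence, as Krtap31-1 and Krtap31-2 do, so the 51 promoters are not independent of each other.

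Reads from similar family members are hard to assign. In 33 of the 57 genes at least 90% of all 50-base windows of the transcript occurred in no other annotated gene, and 24 fell below this limit. The lowest share was 18.7%, in Krtap4-13, which shares sequence with Gm11554. The deposited counts are estimated, so a read that matches several genes could be divided among them, and 61.7% of the values above 0 of the Krtap genes were whole (within 0.001). In TSK 1 and again in TSK 2 a single read was split into 0.124 counts for Krtap31-1 and 0.876 for Krtap31-2. Krtap14 and Krtap15 overlap on opposite strands, and Krtap10-4, Krtap10-10 and Krtap12-1 lie within Tspear. The kit marks strand, but whether the counting used it is not stated in the sources used here.

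Krtap RNA was detected at a low level in every library. A count was found for 54 of the 57 genes in at least 1 library and for 25 in all 6. Only 35 genes reached 10 counts in any library, and 5 did so in all 6. Krtap13, Krtap27-1 and Krtap5-1 had no count above 0.0022. All 57 genes together held 2769 counts over the 6 libraries, of which the top 10 genes held 54.4%. The highest single value was 83.5 counts, for Krtap4-1 in WT 1.

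WT 1 stood apart from the other libraries. Summed over all Krtap genes the level was 56.9, 20.8 and 10.7 CPM in WT 1, 2 and 3 and 27.7, 14.6 and 21.3 CPM in TSK 1, 2 and 3. The groups overlapped fully, with the TSK libraries lying within the range of the WT libraries. The means were 29.4 ± 24.3 CPM in WT and 21.2 ± 6.52 CPM in TSK (SD, n = 3), a ratio of 0.72 (0.63 with TMM scaling), and without WT 1 the ratio was 1.35 (1.04 with TMM scaling). WT 1 was the highest library for 39 of the 54 detected genes and TSK 1 for 10. Of the 54 genes, 38 had a lower mean CPM in TSK and 16 a higher mean, and without WT 1 these counts were 26 and 27 (32 and 21 with TMM scaling).

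Other hair and epidermal genes were also higher in WT 1 than in WT 2 and WT 3. Summed levels of cell division genes were 202 CPM in WT 1 against 90.4 and 134 CPM in WT 2 and 3. The bulge and resting follicle list stood at 2194 CPM in WT 1 against 1269 and 1145 CPM, the interfollicular epidermis list at 7513 CPM against 3975 and 5053 CPM, and the sebaceous gland list at 132 CPM against 50.9 and 88.3 CPM. Muscle and fibroblast lists went the other way and were lowest in WT 1 among the WT libraries, at 138001 CPM against 198986 and 188474 CPM for muscle and at 6334 CPM against 8506 and 9637 CPM for fibroblasts. These lists thus set WT 1 apart from WT 2 and WT 3 together with the Krtap genes. Not all of them set WT 1 apart from TSK. In TSK 1, 2 and 3 the cell division list was at 144, 117 and 134 CPM, all below WT 1. The bulge and resting follicle list, at 1897, 1491 and 1529 CPM, was also below WT 1. The interfollicular epidermis list was at 7877, 5135 and 4655 CPM, above WT 1 in TSK 1. The sebaceous gland list was at 105, 138 and 139 CPM, above WT 1 in TSK 2 and 3. The part of these lists in the Krtap values was not tested.

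**Figure D2:**
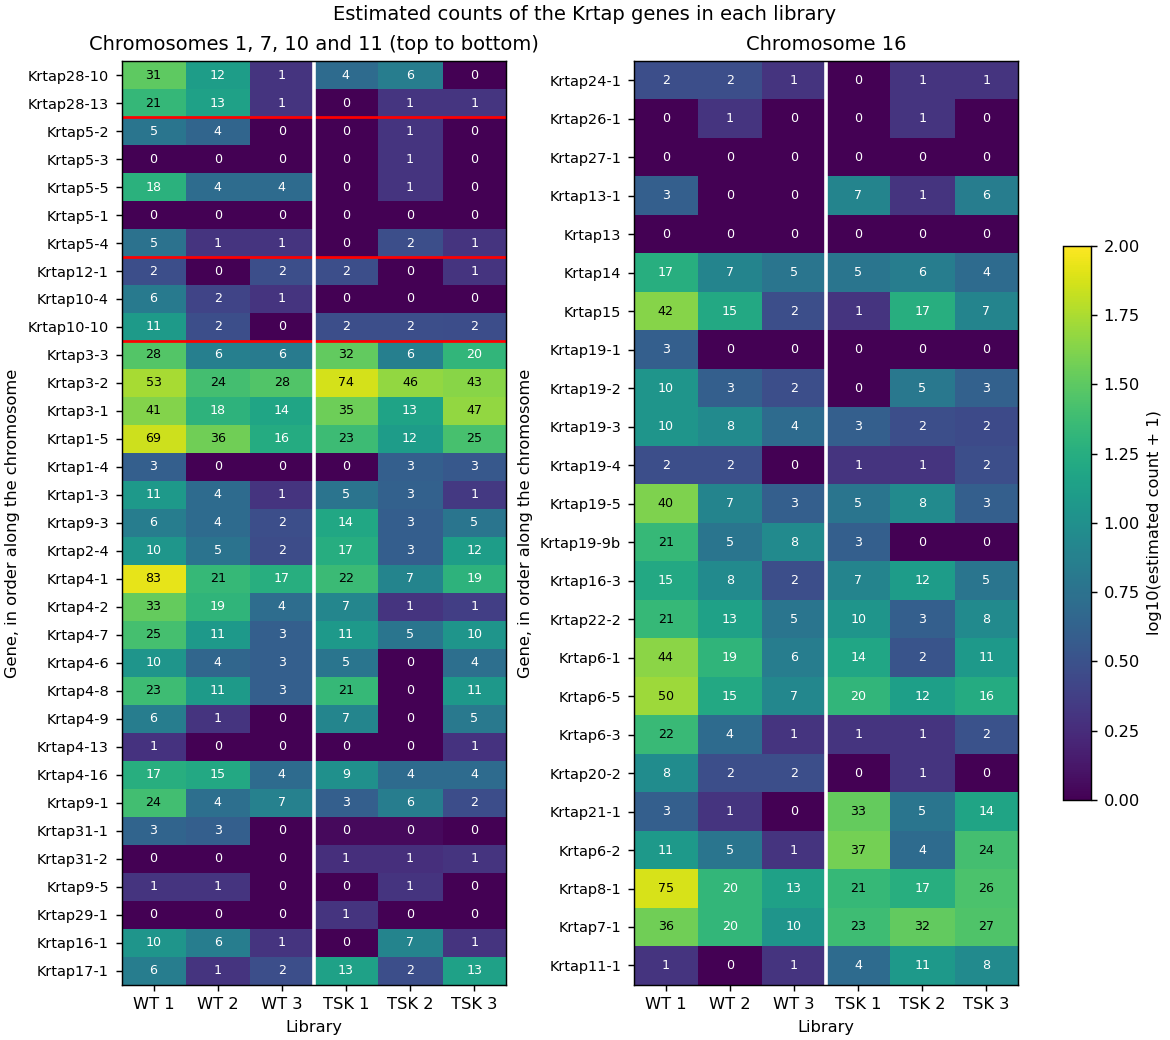
Estimated counts (rounded in the cells, colour on a log10(count + 1) scale) of the 57 Krtap genes in the 3 WT and 3 TSK libraries, in order along each chromosome. The WT 1 column is brightest on every chromosome, and the pair Krtap21-1 and Krtap6-2 on chromosome 16 is bright in TSK 1 and TSK 3 instead.

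By chromosome the sum on chromosome 11 was 26.4, 10.4 and 6.15 CPM in WT 1, 2 and 3 and 16.5, 6.46 and 12.1 CPM in TSK 1, 2 and 3. On chromosome 16 it was 24.9, 8.37 and 4.04 CPM in WT and 10.7, 7.43 and 8.97 CPM in TSK. On both chromosomes the groups overlapped, and the ratio of the means turned with WT 1. It was 0.81 on chromosome 11 and 0.73 on chromosome 16 with all libraries, and 1.41 and 1.46 without WT 1. With TMM scaling these values were 0.71 and 0.63, and 1.09 and 1.12 without WT 1. These clusters held 51.4% and 42.4% of all Krtap counts.

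The 3 small clusters together held few counts. On chromosome 1 the sum was 51.4, 25 and 2 counts in WT 1, 2 and 3 and 4, 7.04 and 1.05 counts in TSK 1, 2 and 3, and on chromosome 7 it was 27.6, 8.64 and 5 counts in WT and 0.0022, 5 and 1 counts in TSK. The TSK means were lower, with ratios of CPM means of 0.15 on chromosome 1 and 0.14 on chromosome 7, and were also lower without WT 1, at 0.30 and 0.28 (0.22 in both with TMM scaling). Without TSK 2 they were 0.095 and 0.035. On chromosome 1 the groups overlapped through WT 3. On chromosome 7 every TSK library was below every WT library, though TSK 2 at 0.26 CPM lay just under WT 3 at 0.275 CPM. On chromosome 10 the sum was 18.8, 3.55 and 3 counts in WT and 4, 2 and 2.99 counts in TSK, with a ratio of 0.34 that became 0.91 without WT 1 (0.30 and 0.71 with TMM scaling).

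By protein class the high sulfur genes had a ratio of 1.04, the high glycine-tyrosine genes 0.59 and the ultra-high sulfur genes 0.48. With TMM scaling these ratios were 0.90, 0.51 and 0.42, so that the high sulfur genes turned to below 1. Without WT 1 they were 1.71, 1.21 and 0.95, and 1.32, 0.93 and 0.73 with TMM scaling. Within the chromosome 11 cluster the 11 high sulfur genes were at 12.8, 5.47 and 3.75 CPM in WT and 10.8, 4.93 and 8.26 CPM in TSK, a ratio of 1.09 (0.94 with TMM scaling). The 12 ultra-high sulfur genes of the same cluster were at 13.6, 4.93 and 2.40 CPM in WT and 5.68, 1.52 and 3.80 CPM in TSK, a ratio of 0.53 (0.46 with TMM scaling). Without WT 1 the ratio of the high sulfur genes of this cluster was 1.73 (1.34 with TMM scaling) and that of its ultra-high sulfur genes 1.00 (0.77 with TMM scaling), so that with CPM the lower level of the latter rested on WT 1. In the share of all Krtap counts the groups were apart for the ultra-high sulfur and high sulfur classes and overlapped for the high glycine-tyrosine class. Ultra-high sulfur genes took 27.9%, 26.0% and 25.4% of the Krtap counts in WT 1, 2 and 3 and 21.0%, 12.2% and 18.6% in TSK 1, 2 and 3, so that every TSK library was below every WT library. High sulfur genes took 32.8%, 37.9% and 45.7% in WT and 47.4%, 58.3% and 52.2% in TSK, so that every TSK library was above every WT library. No test was made on these shares, which were looked at after the values were known.

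**Figure D3:**
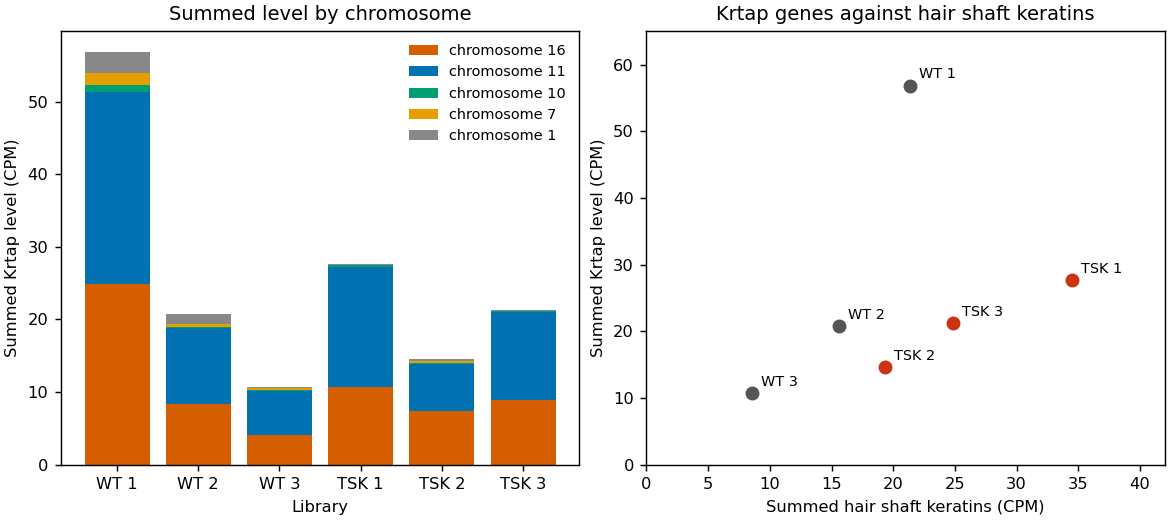
Left, summed Krtap level (CPM) in each library, with bars stacked by chromosome from chromosome 16 at the bottom. Right, summed Krtap level against the summed level of 15 hair shaft keratin genes (both CPM), 1 point per library with WT in grey and TSK in red. WT 1 reaches 56.9 CPM, and each TSK point has less Krtap RNA for its keratin level than any WT point.

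To ask which Krtap genes differed between the genotypes, edgeR's quasi-likelihood test was run on the whole table. Only 15 Krtap genes had enough counts to be tested, 8 on chromosome 11 and 7 on chromosome 16, among 19971 genes. None passed an adjusted p below 0.05 in either direction, against 2.71% of all tested genes that were higher in TSK and 0.681% that were lower. Taking the p before adjustment, 2 were below 0.05 with lower values in TSK, against 7.90% of all tested genes, and none with higher values, against 12.1%. The median log2 fold change (TSK minus WT) of the 15 was -0.86 and that of all tested genes -0.03, with 9 below 0 and 6 above. Without WT 1, 17 Krtap genes were tested, none passed, and the median was 0.26, with 6 below 0 and 11 above. Of the 15 genes, 3 turned from below to above 0 when WT 1 was left out, and none turned the other way.

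**Figure D4:**
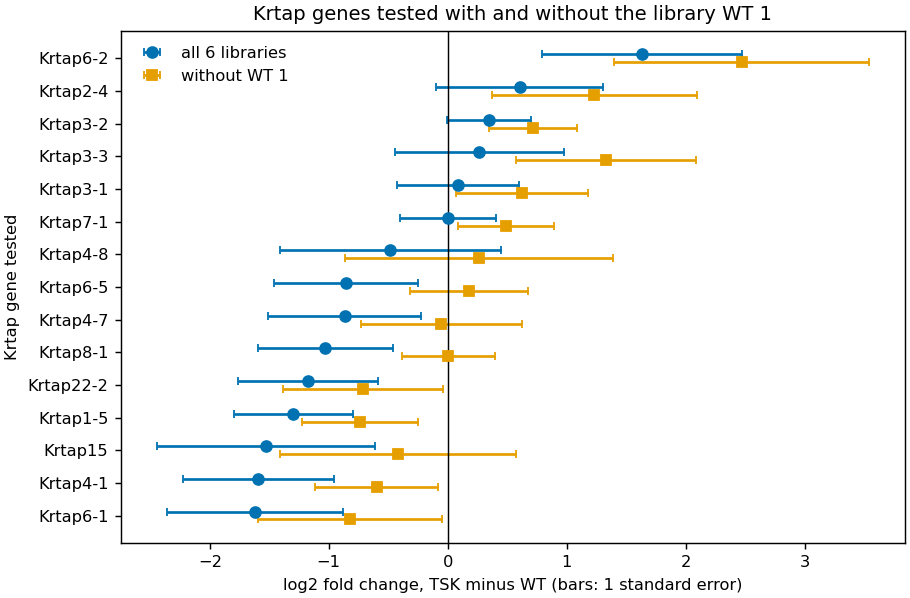
Log2 fold change (TSK minus WT, edgeR) with 1 standard error for the 15 tested Krtap genes, from all 6 libraries (circles) and without WT 1 (squares). Every square lies to the right of its circle, and Krtap6-2 has the greatest rise under both, from 1.63 to 2.47.

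On chromosome 11 Krtap3-1 and Krtap3-2, which encode high sulfur proteins of the hair cortex, were the most abundant genes per length over all 6 libraries. Krtap3-1 had a mean of 2.54 CPM per kb, Krtap3-2 one of 2.36 and Krtap1-5, a high sulfur gene, one of 1.59, while Krtap3-3 was at 1.22. The order differed between the genotypes. In WT alone the means were 2.27 for Krtap3-1, 2.23 for Krtap4-1, 2.15 for Krtap1-5 and 1.89 for Krtap3-2, and in TSK alone both Krtap3-1 and Krtap3-2 were at 2.82. Krtap3-1 was at 41.3, 18.5 and 14 counts in WT 1, 2 and 3 and at 35.4, 13.3 and 46.6 counts in TSK 1, 2 and 3. The groups overlapped, and the fitted log2 difference was 0.09 (SE 0.51, adjusted p = 0.95 in edgeR). Krtap3-2 was at 53.3, 24.3 and 27.6 counts in WT and 73.8, 46.4 and 42.7 counts in TSK. Its groups overlapped through WT 1, and its log2 difference of 0.34 (SE 0.35, adjusted p = 0.643) did not pass. Over all 3 Krtap3 genes, whose reads are shared in part, the ratio of the CPM means was 1.39 (1.20 with TMM scaling), and without WT 1 it was 2.17 (1.69 with TMM scaling).

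Krtap1-5 had the smallest p of the tested genes. It was at 69, 36 and 16 counts in WT 1, 2 and 3 and at 22.6, 11.8 and 25.3 counts in TSK 1, 2 and 3. WT 1 and WT 2 were above all TSK libraries, while WT 3 lay among them. In edgeR its log2 fold change came to -1.30 (SE 0.50, adjusted p = 0.194), or -0.74 without WT 1. Krtap4-1, an ultra-high sulfur gene, followed with 83.5, 21.0 and 16.8 counts in WT and 22.2, 7.04 and 18.7 counts in TSK. Its groups overlapped, and WT 1 alone lay far above the rest. The fitted log2 value was -1.59 (SE 0.64, adjusted p = 0.21), or -0.60 without WT 1. These were the genes with an unadjusted p below 0.05. The 8 Krtap4 genes together had a ratio of CPM means of 0.48 (0.42 with TMM scaling, 0.89 without WT 1, and 0.69 with both), and 7 of them were highest in WT 1.

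On chromosome 16 the most abundant genes per length over all 6 libraries were Krtap8-1, a high glycine-tyrosine gene, at 2.75 CPM per kb, Krtap7-1 at 2.15 and Krtap6-5, also of the high glycine-tyrosine class, at 1.86. In WT alone Krtap8-1 at 3.51 was followed by Krtap6-5 at 2.28 and Krtap6-1 at 2.17, with Krtap7-1 at 1.97, whereas in TSK alone Krtap7-1 led at 2.34 CPM per kb before Krtap8-1 at 1.98. Krtap8-1 was at 75, 20 and 13 counts in WT 1, 2 and 3 and at 21, 17 and 26 counts in TSK 1, 2 and 3. Apart from WT 1 the groups were mixed, and its log2 value was -1.03 (SE 0.57, adjusted p = 0.359 in edgeR) with all libraries and 0.005 without WT 1. Krtap7-1 was at 36, 20 and 10 counts in WT and 23, 32 and 27 counts in TSK, with a log2 value of 0.005 (SE 0.40, adjusted p = 0.996). Krtap6-5 was at 50.4, 15 and 7.46 counts in WT and 19.6, 12.4 and 15.9 counts in TSK, and its value of -0.86 (SE 0.61, adjusted p = 0.482) turned to 0.18 without WT 1.

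The greatest fall and the greatest rise among the tested genes were found in 2 members of the same family, Krtap6, which encodes high glycine-tyrosine proteins. Krtap6-1 was at 44.2, 19.3 and 6 counts in WT 1, 2 and 3 and at 14.4, 2.32 and 11.2 counts in TSK 1, 2 and 3. On the log2 scale it differed by -1.62 (SE 0.74, adjusted p = 0.268 in edgeR), or by -0.82 without WT 1. Krtap6-2 was at 11, 5 and 1 counts in WT and 37.5, 4 and 24.2 counts in TSK. TSK 1 and TSK 3 were above every WT library, and TSK 2 lay within the WT range, so that the log2 fold change of 1.63 (SE 0.84, adjusted p = 0.325) did not pass. It was 0.94 without TSK 1 and 2.47 without WT 1. Krtap22-2, of the same class, was at 21, 13 and 5 counts in WT and 10, 3 and 8 counts in TSK (log2 fold change -1.18, SE 0.59, adjusted p = 0.31).

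Krtap21-1, the neighbour of Krtap6-2 and a further high glycine-tyrosine gene, was too low for the main filter and is named here after its values were seen. It was at 3, 1 and 0 counts in WT 1, 2 and 3 and at 32.5, 5 and 13.8 counts in TSK 1, 2 and 3. Every TSK library was above every WT library, and the ratio of the CPM means was 12.4 (11.1 with TMM scaling), on 4 counts in WT. Without TSK 1 the ratio was 6.64. Without WT 1 it was 34.8 (26.4 with TMM scaling), on 1 count in WT, and the ratio of the pooled counts then had an exact 95% interval of 5.75 to 1349, which covers counting error only. It shares sequence with Krtap6-2, and in TSK 1 the estimated counts of both added up to 70 and in TSK 3 to 38, both whole numbers. In sum the pair was at 14, 6 and 1 counts in WT and 70, 9 and 38 counts in TSK, which overlapped. Without a filter on low counts edgeR gave Krtap21-1 an adjusted p of 0.0398, and DESeq2 gave 0.0349.

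These alternatives called a few more genes, all low in counts. Without the filter 54 Krtap genes entered, 1 was higher and 4 were lower by the same threshold, where 2.99% of all genes were higher and 0.997% lower. The 4 were Krtap4-2, Krtap19-9b, Krtap28-13 and Krtap5-5. With DESeq2, 22 Krtap genes had an adjusted p, and Krtap21-1 was higher and Krtap4-2 lower, where 5.50% of all genes were higher and 1.98% lower. Krtap4-2, an ultra-high sulfur gene, was at 32.8, 19.3 and 4.21 counts in WT 1, 2 and 3 and at 7.24, 1 and 1.35 counts in TSK 1, 2 and 3, and WT 3 lay below TSK 1. Its adjusted p was 0.0399 in edgeR without the filter and 0.0435 in DESeq2.

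Krtap19-9b was at 21, 5 and 8 counts in WT and 3, 0 and 0 counts in TSK, with every TSK library below every WT library. The 6 Krtap19 genes, all encoding high glycine-tyrosine proteins, were all lower in the TSK mean and all highest in WT 1, and their summed ratio was 0.28 (0.25 with TMM scaling). Without WT 1 it was 0.60 (0.46 with TMM scaling), with 2 genes lower and 3 higher. The sum of the 6 genes was 86, 25 and 17 counts in WT 1, 2 and 3 and 12, 16.3 and 10 counts in TSK 1, 2 and 3. Every TSK library was below every WT library under both scalings, with TSK 2 just under WT 3 on CPM. No test was made on this sum.

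In the small clusters no gene had enough counts for the main test. Krtap28-10 was at 30.8, 12 and 1 counts in WT 1, 2 and 3 and at 4, 6 and 0 counts in TSK 1, 2 and 3, and Krtap28-13 at 20.7, 13 and 1 counts in WT and 0, 1.04 and 1.05 counts in TSK. In both, WT 3 lay at the level of the TSK libraries. On chromosome 7, where the Krtap5 family of hair cuticle proteins lies, Krtap5-5 was at 17.9, 4.13 and 4 counts in WT and at 0, 1 and 0 counts in TSK. The groups did not overlap, and edgeR without the filter gave an adjusted p of 0.0262. Krtap5-4 was at 4.67, 1 and 1 counts in WT and 0, 2 and 1 counts in TSK, and Krtap5-2 at 5, 3.52 and 0 counts in WT and 0, 1 and 0 counts in TSK, both within overlapping ranges.

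On chromosome 10 every value outside WT 1 was below 4 counts. Krtap10-10 was at 11.2, 2 and 0 counts in WT 1, 2 and 3 and at 2, 2 and 1.99 counts in TSK 1, 2 and 3. Krtap12-1 was at 2, 0 and 2 counts in WT and 2, 0 and 1 counts in TSK. Krtap10-4 was at 5.54, 1.55 and 1 counts in WT and had no count in TSK, where a 0 allows up to 3 counts per library. None of these 3 genes passed an adjusted p below 0.05 in edgeR without the filter, where the smallest was 0.144, for Krtap10-4.

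In 9 of the 54 detected genes the WT and TSK libraries were fully apart. They were higher in TSK in 3 (Krtap21-1, Krtap11-1 and Krtap31-2), where 19.5% of all genes with a count were, and lower in TSK in 6 (Krtap5-5, Krtap10-4, Krtap24-1, Krtap19-3, Krtap19-9b and Krtap20-2), where 2.90% of all genes were. With TMM scaling the same 3 were higher, where 10.2% of all genes were, and 8 were lower, with Krtap14 and Krtap28-13 added, where 8.20% of all genes were. Of the higher genes Krtap11-1, a high sulfur gene, was at 1, 0 and 1 counts in WT 1, 2 and 3 and at 4, 11 and 8 counts in TSK 1, 2 and 3, and all of its windows are unique. Krtap31-2 rested on 1 read per TSK library, divided with Krtap31-1 in TSK 1 and TSK 2. In sum these 2 genes were at 3.41, 3 and 0 counts in WT and 1, 1 and 1 counts in TSK, which overlapped. Of the lower genes Krtap19-3 was at 10, 8 and 4 counts in WT and 3, 2 and 1.83 counts in TSK. Krtap20-2 was at 8.40, 2 and 2 counts in WT and 0, 1 and 0 counts in TSK, and Krtap24-1 never passed 2 counts. Some of these genes were apart only below the level of 3 counts that a 0 allows. Krtap24-1 had 1 count in each of WT 3, TSK 2 and TSK 3, which differed by their library totals alone, and Krtap10-4 had 1 count in WT 3 against 0 in TSK. Asking for more than 3 counts in each library of the higher group left Krtap21-1 and Krtap11-1 as higher in TSK, where 18.1% of all genes with a count were, and Krtap5-5, Krtap19-3 and Krtap19-9b as lower, where 1.99% were.

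The keratins that form the filaments of the hair shaft were compared with the Krtap genes in the same libraries. Of 16 hair shaft keratins, 15 were in the table, and Krt85 was not analysed here. Their summed level was 21.4, 15.6 and 8.53 CPM in WT 1, 2 and 3 and 34.5, 19.3 and 24.8 CPM in TSK 1, 2 and 3, a ratio of 1.73 (1.45 with TMM scaling) with overlapping groups. Krt84 made up 71.7% of the sum in WT on average and 35.5% in TSK. Leaving it out, a choice made after seeing the data, gave 8.11, 3.10 and 2.32 CPM in WT and 15.2, 16.9 and 15.3 CPM in TSK, with all TSK libraries above all WT libraries and a ratio of 3.51 (3.01 with TMM scaling), which became 5.84 without WT 1. Of 9 tested, Krt87 was higher in TSK (by 3.99 on the log2 scale, SE 0.47, adjusted p = 0.00847 in edgeR) and none was lower, where 2.71% of all tested genes were higher and 0.681% lower. The median log2 fold change of the 9 keratins was 2.05. The most abundant were Krt84, a keratin also made in tongue and nail, at 13.3, 12.5 and 6.21 CPM in WT and 19.25, 2.39 and 9.54 CPM in TSK, and Krt32, a cuticle keratin, at 3.47, 1.49 and 1.59 CPM in WT and 3.19, 3.38 and 3.13 CPM in TSK.

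Set against these keratins, the Krtap level was lower in every TSK library. For each 100 CPM of hair shaft keratins there were 266, 133 and 126 CPM of Krtap RNA in WT 1, 2 and 3 and 80.2, 75.6 and 85.8 CPM in TSK 1, 2 and 3. The 3 TSK libraries lay close together and below all WT libraries. The ratio of the means was 0.46, and 0.62 without WT 1. Leaving out Krt84, a choice made after seeing the data, gave 701, 668 and 464 CPM in WT and 181, 86.2 and 139 CPM in TSK, and the groups again did not overlap. The Krtap mean was lower in TSK only with WT 1 included, while the keratin mean was higher in TSK under both scalings.

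Other hair follicle lists were counted in the same fit, in which 2.71% of all tested genes were higher in TSK and 0.681% lower. Of 7 inner root sheath genes tested, which mark the layer that guides the growing shaft, 3 were higher in TSK (Krt25, Krt27 and Krt71) and none lower, with a median log2 fold change of 1.66. Tchh and Krt71 were the most abundant over all 6 libraries, though in WT alone Krt71 with a mean of 0.522 CPM lay below Krt72 at 1.85 and Krt26 at 1.22 CPM. Krt71 was at 1.35, 0.213 and 0 CPM in WT and 5.65, 12.05 and 6.99 CPM in TSK, and the list summed to 58.2, 54.0 and 28.7 CPM in WT and 58.5, 73.8 and 69.8 CPM in TSK. The ratio of these sums was 1.43 (1.18 with TMM scaling), and the groups were apart on CPM but overlapped with TMM scaling. Of 14 regulators of hair matrix and cortex, 4 were higher (Dlx3, Lef1, Prdm1 and Wnt10b) and none lower, with a median of 0.33. Cux1 and Gata3 led that list, which summed to 385, 278 and 297 CPM in WT and 480, 381 and 394 CPM in TSK, a ratio of 1.31 (1.09 with TMM scaling). Of 7 other cortex and cuticle genes tested none passed in either direction, with a median of 0.53. The sums of this list, 97.8, 73.5 and 46.5 CPM in WT and 79.3, 62.0 and 76.1 CPM in TSK, overlapped, with a ratio of 1.00 (0.83 with TMM scaling). Krt75 led this list at 66.3, 52.6 and 28.4 CPM in WT and 43.1, 21.6 and 39.5 CPM in TSK, followed by Selenbp1.

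The remaining lists bear on the cells in the samples, and their counts stand against the same 2.71% of all tested genes higher and 0.681% lower. Of 9 bulge and resting follicle genes, 3 were higher in TSK (Bmp6, Cd34 and Tcf7l1), with a median log2 fold change of 0.29. The summed level of this list overlapped between the groups, with a ratio of 1.07 (0.90 with TMM scaling). Without WT 1 this ratio was 1.36 (1.05 with TMM scaling). None of 10 cell division genes passed, and all 10 had fitted values below 0, with a median of -0.44. On CPM 8 of them were lower in TSK, and Birc5 and Pcna higher. Their summed level had a ratio of 0.93 (0.79 with TMM scaling), which turned to 1.18 without WT 1 (0.92 with TMM scaling). None of 4 melanin synthesis genes, 6 sebaceous gland genes, 8 muscle genes or 7 fibroblast genes passed, with medians of 0.98, 0.26, -0.76 and 1.24, and of 10 interfollicular epidermis genes Lor was higher. The summed levels of some of these lists were nevertheless fully apart between the genotypes under both scalings. The fibroblast list was at 6334, 8506 and 9637 CPM in WT 1, 2 and 3 and at 20824, 20351 and 47340 CPM in TSK 1, 2 and 3, a ratio of 3.62 (2.91 with TMM scaling). The muscle list was lower in TSK, at 138001, 198986 and 188474 CPM in WT and 134748, 125493 and 119629 CPM in TSK, a ratio of 0.72 (0.59 with TMM scaling). Melanin synthesis genes summed to 7.84, 5.52 and 5.95 CPM in WT and 10.8, 18.2 and 12.6 CPM in TSK, a ratio of 2.16 (1.79 with TMM scaling). Of 7 adipocyte genes 3 were higher (Cfd, Lep and Plin1), with a median log2 fold change of 2.71, and their sum was also apart under both scalings. In all these lists no gene passed in the lower direction (edgeR), and their part in the Krtap values was not tested.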

How the data were processed

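Bulk RNA from dorsal skin of 3 TSK and 3 WT mice was analysed, with groups taken from the labels. The authors prepared stranded libraries after ribosomal RNA depletion, sequenced single-end reads of 50 bases, aligned them with STAR to mm10, and counted reads per gene in Partek Flow 11.0 (Ensembl genes). The deposited count table holds estimated counts, not whole counts as planned for, so they were rounded before testing. The CPM table, in which the authors scaled counts to 1000000 per library, was an alternative; CPM in the text is count divided by library total.

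The members and lists were chosen with earlier results of these data known. Genes kept by filterByExpr were tested with edgeR 4.0.16 (TMM, quasi-likelihood, R 4.3.3), with Benjamini-Hochberg adjustment over all genes. DESeq2 1.42.0, limma-voom (3.58.1), other scalings and filters, a replicate block and the omission of single libraries were alternatives. The fit was tested on simulated counts. Named genes were, in each cluster, the 3 of highest CPM per kb, the 5 with the smallest p, the greatest fall and rise, and in each hair list the 2 most abundant; others were named after their values were seen. Positions, composition and 50-base windows come from GENCODE M21. Promoters of 250 bases come from RefSeq. Replicates are separate mice. Ratios of clusters, classes, families and gene lists without 1 library, and a minimum of counts for groups that do not overlap, were alternatives chosen after seeing the data.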

Additional observations from a re-analysis of the deposited data

How the results depend on the processing

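The counts of Krtap genes called at an adjusted p below 0.05, 0 higher and 0 lower with edgeR, were also 0 with limma-voom, both other scalings, a stricter filter, the thresholds of the study (fold above 2.5, adjusted p below 0.01) and without each library in turn (range 0 to 0 in both directions). DESeq2 gave 1 higher and 1 lower, and no low-count filter gave 1 higher and 4 lower. With a replicate block 0 were higher and 0 lower, with a median log2 fold change of -0.63; same-numbered mice did not deviate together (correlations 0.0112, 0.167 and -0.0938). The median of -0.86 lay between -1.18 and 0.005 under the alternatives that keep all libraries, and between -1.29 and 0.26 when 1 library was left out, with 0.26 without WT 1. The summed ratio of 0.72 was 0.63 with TMM scaling, 0.72 in the deposited CPM and in genes with unique windows, and 0.55 to 1.35 with 1 library left out. Of 139 values of the named tested genes and Fbn1 under alternatives, 128 kept direction and call and 11 changed sign. With 1 library left out, Krtap8-1 ranged from -1.41 to 0.0051 and Krtap6-5 from -1.27 to 0.18, both above 0 without WT 1. In the same way Krtap3-2 ranged from -0.0035 to 0.71, Krtap3-1 from -0.28 to 0.62 and Krtap7-1 from -0.32 to 0.49, while Krtap6-2 ranged from 0.94 to 2.47. With limma-voom Krtap3-1 was at -0.014. The Krtap level per 100 CPM of hair shaft keratins had a ratio of 0.46, and 0.22 without Krt84, an alternative chosen after seeing the data. With ultra-high sulfur, also afterwards, assigned before high glycine-tyrosine, the latter had a ratio of 0.66 instead of 0.59. The cause of these changes was not tested. With 5 genes at 10 counts in every library, depth limits most single-gene comparisons.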

Other observations

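On chromosome 16, the sum of Krtap21-1 and Krtap6-2 was set against that of the abundant high glycine-tyrosine genes Krtap6-1, Krtap6-5 and Krtap8-1 of the same cluster, a choice made after the values were seen. The pair held 8.26, 11.04 and 3.78 counts for each 100 counts of these genes in WT 1, 2 and 3 and 127, 28.3 and 71.6 in TSK 1, 2 and 3. All TSK libraries were above all WT libraries in this ratio. Krtap6-2 had the greatest rise and Krtap6-1 the greatest fall among the tested genes. Krtap6-5 and Krtap8-1 also had fitted log2 values below 0 with all libraries. The separation thus follows in part from the choice of genes. The sum of the pair alone overlapped between the groups, and no test was made. Krtap13-1, further along the cluster, was at 3, 0 and 0 counts in WT and 7, 1 and 6 counts in TSK, and Krtap17-1 on chromosome 11 was at 6, 1 and 2 counts in WT and 13, 2 and 13 counts in TSK. Both pairs of groups overlapped.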
